A study of Homo sapiens with 12 samples.

Results

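The genes described here are 35 known responders to low oxygen that lie outside glycolysis, taken from a list of names and found on the array by their gene symbol. A single platform symbol matched a probe for 33 of them. PPFIA4, a liprin scaffold protein, and MIR210HG, the host transcript of a microRNA, had no such probe. EFNA3, an ephrin ligand, and LOXL2, a lysyl oxidase relative, had a probe that was detected on 0 of 12 arrays. The other 31 genes, called the members below, passed the detection rule (at least 2 of the 12 arrays) among 11458 genes in all. They were represented by 49 probes, of which the brightest was used for each gene.

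Cells short of oxygen stabilise the hypoxia-inducible factors HIF1A and EPAS1, which pair with ARNT and bind a short core motif near their target genes. When oxygen is present, prolyl hydroxylases of the EGLN family mark these factors for destruction. Beside the glycolytic enzymes, the targets include secreted vessel growth signals, enzymes that modify collagen, mitophagy receptors, histone demethylases and regulators of growth and lipid storage. Gut epithelium is known as a tissue of steep oxygen gradients in which this response is active.

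RNA was measured on Illumina bead arrays in Caco-2, an epithelial cell line from a human colorectal tumour, after transfections meant to raise or lower SIRT1, an NAD-dependent protein deacetylase. In the plasmid experiment, the OE Sirt1 group (n = 3) received the plasmid pCMV-ENTRY Sirt1, and the OE control group (n = 3) received pCMV-Neo. The siRNA experiment used a low-GC scrambled siRNA (siRNA control, n = 2) or either of a pair of SIRT1 siRNAs with no overlap (KD1, n = 2, with replicate numbers 1 and 2, and KD2, n = 2, with numbers 2 and 3). The siRNA cells were lysed 72 h after transfection. The time for the plasmid cells is not given in the sources used here. All 5 groups are bulk cultures of the same line, and the labels name no low-oxygen exposure in any of them. The series' design text calls the replicates biological. Values below are log2 levels after background correction and quantile normalization, given in the order of the replicate numbers. Levels of different genes come from different probes and are not compared with each other.

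Between 15345 and 17981 probes were detected per array. SIRT1 itself read 8.53, 8.58 and 8.98 on the OE control arrays and 8.66, 8.62 and 8.80 on the OE Sirt1 arrays. For SIRT1 the siRNA controls gave 8.58 and 8.88, the KD1 arrays 7.35 and 7.33, and the KD2 arrays 7.87 and 7.18. The SIRT1 log2 fold change was -1.39 in KD1 (limma adjusted p = 0.0472) and -1.21 in KD2 (0.0507), so the fall passed the threshold of 0.05 in KD1 and narrowly missed it in KD2. The KD1 call held in 7 of 22 alternative settings and was lost when any 1 array of the plasmid groups, the siRNA control or KD1 was left out. It was 0.00 with the plasmid (limma adjusted p = 1), so these arrays show no higher SIRT1 level in OE Sirt1. Whether the used probe lies in the part carried by the plasmid is not given in the sources used here. Of 12 epithelial markers expected in this line, 11 passed the detection rule and 8 were detected on all 12 arrays.

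The clearest difference in the members lay between the plasmid and the siRNA experiment. All 31 had a higher mean with the scrambled siRNA than with the control plasmid, by a median of 1.64 log2 units, where the median over all 11458 genes was -0.01. Past the limma threshold, 24 of the 31 were higher and 0 were lower, beside 3.78% of all genes higher and 5.04% called in either direction. For 25 members all 6 siRNA arrays lay above all 6 plasmid arrays, which held for 5.5% of all genes. The 25 include ANGPTL4, MXI1 and SLC6A8, whose used probes were detected on no plasmid array and had to differ, as described below. The exceptions were VEGFA, CXCR4, PLOD1, KDM4B, JMJD6 and RAB20. Because the RNA is from whole cultures, more responding cells and more RNA per cell cannot be told apart.

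**Figure D1:**
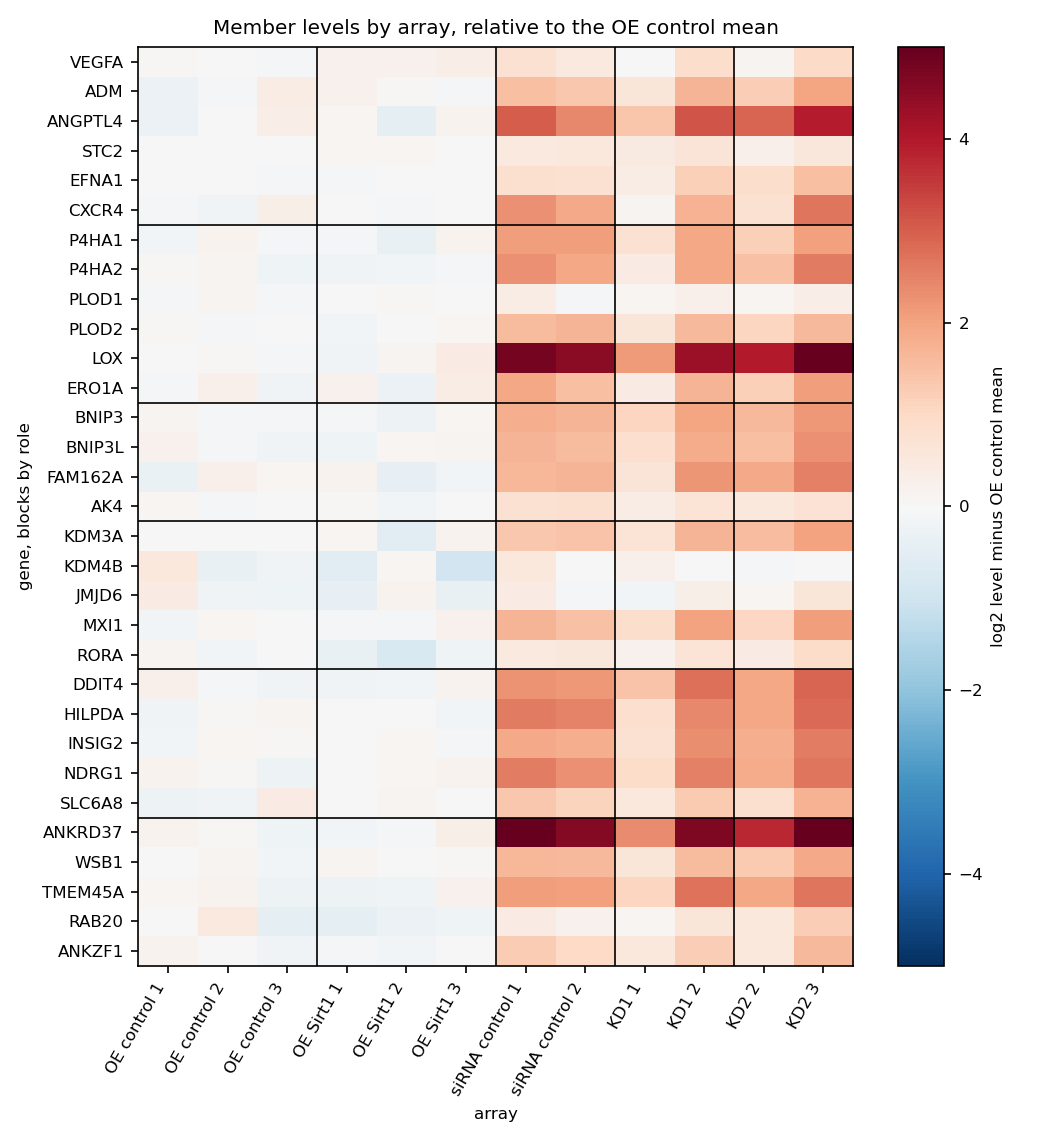
Log2 level of each of the 31 members (rows, in blocks by role) on each of the 12 arrays (columns, in blocks by group) minus that gene's mean over the 3 OE control arrays. The 6 plasmid arrays are near 0 and the 6 siRNA arrays are mostly red, with KD1 replicate 1 paler than its partner for 30 of 31 members.

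The comparison of the control groups has 2 limits. Each siRNA control array is needed for it: without siRNA control replicate 1, or without replicate 2, limma called 0 members and 0 genes, and without 1 of the OE control arrays the count was 12, 14 or 11. The control groups differ in the nucleic acid transfected and in everything else that differed between the experiments, which cannot be told apart. The probes used for ANGPTL4, CXCR4, MXI1 and SLC6A8 were detected on 0 of the 6 plasmid arrays, so these probes passed the detection rule only through the siRNA arrays and had to differ. Their folds are therefore given as lower bounds, without a p-value, and their calls past the limma threshold are no evidence of a difference. Of the other 27 members, each detected on at least 11 arrays, 20 were higher, beside 3.78% of all genes. The counts by role below are to be read beside the same share.

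Among the secreted signals and their surface partners, 2 of the 4 genes whose probe was detected on the OE control arrays were higher with the scrambled siRNA, and the probes of ANGPTL4 and CXCR4 are among those that had to differ. ADM encodes adrenomedullin, a vasodilator peptide. ADM read 10.62, 10.85 and 11.30 on the OE control arrays and 11.14, 10.97 and 10.83 on the OE Sirt1 arrays. For ADM the siRNA controls gave 12.43 and 12.27, the KD1 arrays 11.52 and 12.60, and the KD2 arrays 12.17 and 12.90. All siRNA arrays were above all plasmid arrays, and the log2 difference between the control groups was 1.43 (SE 0.31, limma adjusted p = 0.0332). ANGPTL4 is a secreted inhibitor of lipoprotein lipase. ANGPTL4 read 4.87, 5.16 and 5.52 on the OE control arrays and 5.27, 4.73 and 5.35 on the OE Sirt1 arrays. For ANGPTL4 the siRNA controls gave 8.21 and 7.57, the KD1 arrays 6.55 and 8.31, and the KD2 arrays 8.07 and 9.09. This ANGPTL4 probe was detected on all 6 siRNA arrays and on 0 plasmid arrays, and its signal was at least 4.13-fold higher with the scrambled siRNA. A second ANGPTL4 probe was detected on 5 of the 6 plasmid arrays and on all 6 siRNA arrays, and it differed by 0.20 log2 units between the controls. The gene was thus detected in the plasmid experiment, its probes disagree, and the bound holds for 1 probe only. STC2 encodes stanniocalcin, a secreted glycoprotein hormone. STC2 read 11.02, 11.07 and 11.00 on the OE control arrays and 11.11, 11.13 and 11.00 on the OE Sirt1 arrays. For STC2 the siRNA controls gave 11.54 and 11.54, the KD1 arrays 11.49 and 11.67, and the KD2 arrays 11.28 and 11.58. The groups do not overlap between the experiments, but the step is small, with a log2 difference of 0.51 (SE 0.12, limma adjusted p = 0.0387).

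CXCR4 is the receptor of the chemokine CXCL12. CXCR4 read 4.57, 4.48 and 4.98 on the OE control arrays and 4.65, 4.59 and 4.67 on the OE Sirt1 arrays. For CXCR4 the siRNA controls gave 6.96 and 6.58, the KD1 arrays 4.79 and 6.40, and the KD2 arrays 5.43 and 7.33. CXCR4 was detected on 4 arrays, namely both siRNA controls and 1 array each of KD1 and KD2. It was at least 1.91-fold higher with the scrambled siRNA. KD1 replicate 1 lay among the plasmid arrays. EFNA1 is a membrane-anchored ligand of Eph receptors. EFNA1 read 11.06, 11.08 and 10.99 on the OE control arrays and 10.96, 11.07 and 11.06 on the OE Sirt1 arrays. For EFNA1 the siRNA controls gave 11.83 and 11.80, the KD1 arrays 11.43 and 12.22, and the KD2 arrays 11.93 and 12.56. The siRNA arrays were all higher, but the control difference of 0.77 (SE 0.22, limma adjusted p = 0.0723) missed the threshold. VEGFA, the main growth factor of blood vessels and a classical HIF target, was not called. VEGFA read 7.36, 7.32 and 7.18 on the OE control arrays and 7.49, 7.50 and 7.64 on the OE Sirt1 arrays. For VEGFA the siRNA controls gave 8.06 and 7.78, the KD1 arrays 7.29 and 8.16, and the KD2 arrays 7.43 and 8.22. KD1 replicate 1 and KD2 replicate 2 lay below all OE Sirt1 arrays, and the control difference was 0.64 (SE 0.26, limma adjusted p = 0.173).

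The collagen and matrix enzymes held 5 called genes of 6. LOX, lysyl oxidase, cross-links collagen and elastin outside the cell. LOX read 6.33, 6.40 and 6.26 on the OE control arrays and 6.17, 6.47 and 6.74 on the OE Sirt1 arrays. For LOX the siRNA controls gave 11.12 and 10.86, the KD1 arrays 8.46 and 10.61, and the KD2 arrays 10.29 and 11.35. LOX had the second highest control difference of the 31, 4.66 (SE 0.50, limma adjusted p = 0.00436), and even its lowest siRNA array, KD1 replicate 1, was above every plasmid array. P4HA1 and P4HA2 are the catalytic subunits of collagen prolyl hydroxylase. P4HA1 read 9.19, 9.49 and 9.27 on the OE control arrays and 9.26, 8.93 and 9.48 on the OE Sirt1 arrays. For P4HA1 the siRNA controls gave 11.41 and 11.40, the KD1 arrays 10.08 and 11.26, and the KD2 arrays 10.50 and 11.38. The control difference of P4HA1 was 2.09 (SE 0.33, limma adjusted p = 0.0147). P4HA2 read 9.33, 9.40 and 9.07 on the OE control arrays and 9.11, 9.14 and 9.18 on the OE Sirt1 arrays. For P4HA2 the siRNA controls gave 11.53 and 11.20, the KD1 arrays 9.68 and 11.20, and the KD2 arrays 10.71 and 11.85. P4HA2 differed by 2.10 (SE 0.40, limma adjusted p = 0.0214), and its KD1 replicate 1 lay closer to the plasmid arrays than to the siRNA controls.

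PLOD2 and PLOD1 are lysyl hydroxylases that act on collagen. PLOD2 read 11.35, 11.22 and 11.26 on the OE control arrays and 11.15, 11.26 and 11.37 on the OE Sirt1 arrays. For PLOD2 the siRNA controls gave 12.86 and 12.99, the KD1 arrays 11.86 and 12.90, and the KD2 arrays 12.36 and 12.89. PLOD2 was higher by 1.64 (SE 0.25, limma adjusted p = 0.0141), with no overlap between the experiments. PLOD1 read 10.92, 11.13 and 10.90 on the OE control arrays and 10.98, 11.03 and 11.01 on the OE Sirt1 arrays. For PLOD1 the siRNA controls gave 11.34 and 10.87, the KD1 arrays 11.09 and 11.22, and the KD2 arrays 11.07 and 11.30. PLOD1, in contrast to PLOD2, kept within 0.47 log2 units over all 12 arrays, and its control difference was 0.12 (SE 0.15, limma adjusted p = 0.667). ERO1A is the oxidase that recharges protein disulfide isomerase in the endoplasmic reticulum. ERO1A read 7.59, 7.89 and 7.48 on the OE control arrays and 7.85, 7.35 and 8.04 on the OE Sirt1 arrays. For ERO1A the siRNA controls gave 9.58 and 9.16, the KD1 arrays 8.07 and 9.37, and the KD2 arrays 8.86 and 9.75. Its KD1 replicate 1 was just above the highest plasmid array, and the control difference was 1.72 (SE 0.37, limma adjusted p = 0.0317).

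**Figure D2:**
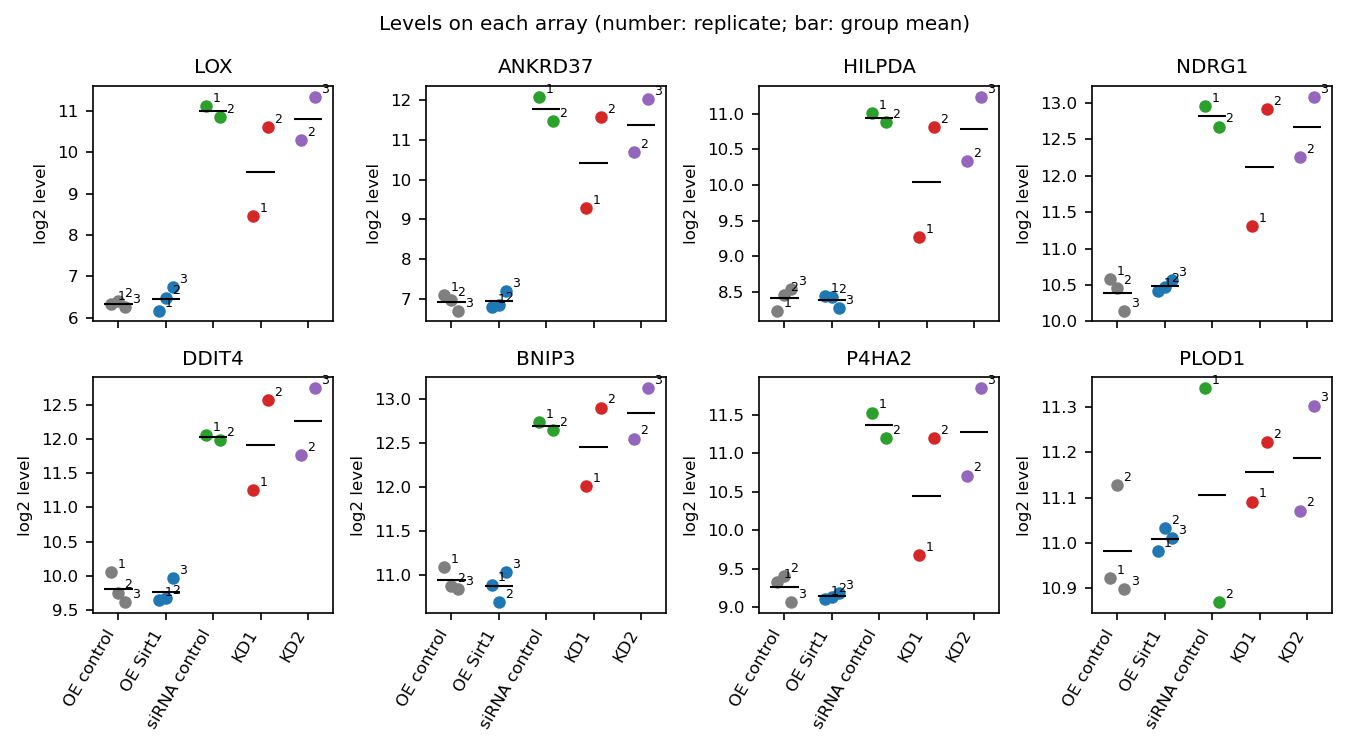
Log2 level of 8 members on each array, by group; each point is 1 array with its replicate number, and the bar is the group mean (each panel has its own axis range). LOX, ANKRD37, HILPDA, NDRG1, DDIT4, BNIP3 and P4HA2 show the step between the experiments and the split of KD1, and PLOD1, which spans 0.47, shows neither.

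All 4 mitochondrial members were called higher. BNIP3 and BNIP3L are outer membrane receptors that mark mitochondria for mitophagy. BNIP3 read 11.10, 10.88 and 10.85 on the OE control arrays and 10.89, 10.69 and 11.04 on the OE Sirt1 arrays. For BNIP3 the siRNA controls gave 12.74 and 12.65, the KD1 arrays 12.01 and 12.90, and the KD2 arrays 12.55 and 13.12. The BNIP3 control difference was 1.75 (SE 0.24, limma adjusted p = 0.0105). BNIP3L read 9.42, 9.15 and 9.01 on the OE control arrays and 9.00, 9.28 and 9.33 on the OE Sirt1 arrays. For BNIP3L the siRNA controls gave 10.88 and 10.79, the KD1 arrays 10.05 and 11.05, and the KD2 arrays 10.68 and 11.47. BNIP3L followed with 1.64 (SE 0.29, limma adjusted p = 0.0187), and KD1 replicate 1 was the lowest and KD2 replicate 3 the highest siRNA array for both receptors. FAM162A is a mitochondrial protein linked to cell death in low oxygen. FAM162A read 8.48, 9.07 and 8.93 on the OE control arrays and 9.00, 8.44 and 8.70 on the OE Sirt1 arrays. For FAM162A the siRNA controls gave 10.47 and 10.54, the KD1 arrays 9.48 and 11.03, and the KD2 arrays 10.74 and 11.37. FAM162A was higher by 1.68 (SE 0.38, limma adjusted p = 0.0371), and KD1 replicate 2 and both KD2 arrays were above the siRNA controls. AK4 is the adenylate kinase of the mitochondrial matrix. AK4 read 10.89, 10.69 and 10.79 on the OE control arrays and 10.84, 10.64 and 10.77 on the OE Sirt1 arrays. For AK4 the siRNA controls gave 11.55 and 11.59, the KD1 arrays 11.16 and 11.47, and the KD2 arrays 11.32 and 11.53. AK4 made a small but even step of 0.78 (SE 0.13, limma adjusted p = 0.015), and its 3 other measured probes gave 0.71 to 0.93.

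Of the chromatin and transcription genes, 1 of the 4 detected on the OE control arrays was higher, and MXI1 is among those that had to differ. KDM3A is a histone demethylase that needs oxygen as a substrate. KDM3A read 8.68, 8.69 and 8.71 on the OE control arrays and 8.78, 8.13 and 8.87 on the OE Sirt1 arrays. For KDM3A the siRNA controls gave 10.05 and 10.14, the KD1 arrays 9.36 and 10.38, and the KD2 arrays 10.25 and 10.71. KDM3A was higher by 1.40 (SE 0.29, limma adjusted p = 0.0276). MXI1 antagonises MYC by binding its partner MAX. MXI1 read 5.11, 5.34 and 5.27 on the OE control arrays and 5.20, 5.20 and 5.47 on the OE Sirt1 arrays. For MXI1 the siRNA controls gave 6.94 and 6.70, the KD1 arrays 6.11 and 7.26, and the KD2 arrays 6.26 and 7.31. It was detected on the 6 siRNA arrays alone and was at least 1.97-fold higher with the scrambled siRNA. KDM4B, a related demethylase, scattered within groups. KDM4B read 7.00, 6.10 and 6.31 on the OE control arrays and 5.91, 6.58 and 5.51 on the OE Sirt1 arrays. For KDM4B the siRNA controls gave 6.99 and 6.48, the KD1 arrays 6.72 and 6.44, and the KD2 arrays 6.43 and 6.46. The experiments overlapped, and the KDM4B control difference was 0.26 (SE 0.32, limma adjusted p = 0.666).

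JMJD6 is a hydroxylase of lysines in splicing factors. JMJD6 read 7.09, 6.51 and 6.47 on the OE control arrays and 6.29, 6.87 and 6.34 on the OE Sirt1 arrays. For JMJD6 the siRNA controls gave 7.12 and 6.62, the KD1 arrays 6.56 and 6.98, and the KD2 arrays 6.79 and 7.31. The experiments overlapped for JMJD6, with a control difference of 0.18 (SE 0.27, limma adjusted p = 0.732). RORA is a nuclear receptor of the retinoid-related orphan family. RORA read 6.21, 5.93 and 6.08 on the OE control arrays and 5.69, 5.32 and 5.85 on the OE Sirt1 arrays. For RORA the siRNA controls gave 6.57 and 6.64, the KD1 arrays 6.28 and 6.77, and the KD2 arrays 6.46 and 6.99. RORA on the siRNA arrays was above every plasmid array, but the control difference of 0.53 (SE 0.21, limma adjusted p = 0.157) was not past the threshold. The 3 other measured RORA probes were detected on 3, 5 and 3 arrays and differed by 0.11, 1.62 and 0.45. Those with 1.62 and 0.45 were detected on 0 plasmid arrays, so they had to differ and their values are not measured sizes. The probe with 0.11 was detected on 1 plasmid array and 2 siRNA arrays. The size for this gene therefore rests on the used probe.

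All 4 genes of growth, lipid and metabolite handling that were detected on the OE control arrays were called higher, and SLC6A8 is among those that had to differ. DDIT4 inhibits the growth kinase complex mTORC1. DDIT4 read 10.06, 9.76 and 9.62 on the OE control arrays and 9.65, 9.68 and 9.97 on the OE Sirt1 arrays. For DDIT4 the siRNA controls gave 12.06 and 11.99, the KD1 arrays 11.25 and 12.56, and the KD2 arrays 11.77 and 12.74. DDIT4 differed by 2.21 (SE 0.35, limma adjusted p = 0.0147) between the controls. HILPDA sits on lipid droplets and inhibits fat breakdown. HILPDA read 8.23, 8.46 and 8.53 on the OE control arrays and 8.44, 8.43 and 8.27 on the OE Sirt1 arrays. For HILPDA the siRNA controls gave 11.01 and 10.88, the KD1 arrays 9.26 and 10.81, and the KD2 arrays 10.33 and 11.24. For this gene the difference was 2.53 (SE 0.37, limma adjusted p = 0.0126), and KD1 replicate 1 lay closer to the plasmid arrays than to the siRNA controls. INSIG2 retains the sterol sensor SCAP, and with it the SREBP factors, in the endoplasmic reticulum. INSIG2 read 8.15, 8.40 and 8.34 on the OE control arrays and 8.28, 8.40 and 8.24 on the OE Sirt1 arrays. For INSIG2 the siRNA controls gave 10.20 and 10.11, the KD1 arrays 9.05 and 10.62, and the KD2 arrays 10.12 and 10.84. INSIG2 was higher by 1.86 (SE 0.36, limma adjusted p = 0.0226). NDRG1 is a protein of differentiation and stress. NDRG1 read 10.58, 10.46 and 10.15 on the OE control arrays and 10.41, 10.48 and 10.57 on the OE Sirt1 arrays. For NDRG1 the siRNA controls gave 12.96 and 12.67, the KD1 arrays 11.31 and 12.92, and the KD2 arrays 12.25 and 13.09. NDRG1 differed by 2.42 (SE 0.38, limma adjusted p = 0.0147), and KD1 replicate 1 again was the lowest siRNA array. SLC6A8 is the creatine transporter. SLC6A8 read 4.64, 4.73 and 5.33 on the OE control arrays and 4.88, 5.04 and 4.87 on the OE Sirt1 arrays. For SLC6A8 the siRNA controls gave 6.23 and 6.02, the KD1 arrays 5.42 and 6.21, and the KD2 arrays 5.70 and 6.62. SLC6A8 was at least 1.22-fold higher with the scrambled siRNA.

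Of the remaining 5 members, 4 were called higher. ANKRD37 is a small protein of ankyrin repeats and an established HIF target. ANKRD37 read 7.08, 6.96 and 6.70 on the OE control arrays and 6.79, 6.84 and 7.19 on the OE Sirt1 arrays. For ANKRD37 the siRNA controls gave 12.09 and 11.48, the KD1 arrays 9.28 and 11.58, and the KD2 arrays 10.70 and 12.04. It had the highest log2 difference of the 31 between the controls, 4.88 (SE 0.56, limma adjusted p = 0.00601), and all its siRNA arrays lay above its plasmid arrays. WSB1 is a substrate receptor of a ubiquitin ligase. WSB1 read 10.12, 10.21 and 9.95 on the OE control arrays and 10.24, 10.12 and 10.15 on the OE Sirt1 arrays. For WSB1 the siRNA controls gave 11.75 and 11.70, the KD1 arrays 10.69 and 11.66, and the KD2 arrays 11.39 and 11.98. WSB1 differed by 1.63 (SE 0.25, limma adjusted p = 0.0138). TMEM45A is a transmembrane protein. TMEM45A read 7.50, 7.56 and 7.14 on the OE control arrays and 7.13, 7.20 and 7.62 on the OE Sirt1 arrays. For TMEM45A the siRNA controls gave 9.49 and 9.45, the KD1 arrays 8.48 and 10.11, and the KD2 arrays 9.35 and 10.08. TMEM45A was higher by 2.07 (SE 0.39, limma adjusted p = 0.0209), and KD1 replicate 2 and KD2 replicate 3 stood above both siRNA controls. ANKZF1 releases stalled peptides from ribosomes. ANKZF1 read 7.72, 7.52 and 7.38 on the OE control arrays and 7.42, 7.40 and 7.53 on the OE Sirt1 arrays. For ANKZF1 the siRNA controls gave 8.80 and 8.55, the KD1 arrays 8.08 and 8.78, and the KD2 arrays 8.07 and 9.15. ANKZF1 made a step of 1.14 (SE 0.28, limma adjusted p = 0.0472). RAB20 is a small GTPase of vesicle traffic. RAB20 read 6.98, 7.49 and 6.52 on the OE control arrays and 6.54, 6.72 and 6.80 on the OE Sirt1 arrays. For RAB20 the siRNA controls gave 7.41 and 7.22, the KD1 arrays 7.10 and 7.62, and the KD2 arrays 7.52 and 8.21. RAB20 overlapped between the experiments and differed by 0.32 (SE 0.28, limma adjusted p = 0.538).

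Promoter sequences are shown for 3 members that moved together and for PLOD1, which was not called, because these factors bind DNA through the core motif. RefSeq promoters of GRCh38.p14, from 250 bases before to 50 after a gene's start, were given for 27 of the 35 listed genes, 24 of them measured. The motifs searched were ACGTG and GCGTG on both strands, and a palindromic CACGTG counts as 2 matches. At least 1 match was found in 19 of the 24 promoters (79.2%), against 48.4% of all 27305 promoters in the table. ACGTG alone was found in 13 of them (54.2%), against 21.6% of all. Among the 24, a match of either kind was held by 16 of 20 members called higher with the scrambled siRNA and by 3 of 4 that were not, so members with a match were found in both sets. ACGTG was held by 12 of the 20 and by 1 of the 4. P4HA2 and TMEM45A were called higher and had 0 matches. The 20 also include ANGPTL4, CXCR4, MXI1 and SLC6A8, whose used probes had to differ between the experiments. Of these, ANGPTL4 and CXCR4 had 1 match each, ACGTG in ANGPTL4 only, and MXI1 and SLC6A8 had 0. Their place among the called members is no evidence of a difference. Of the members not called, KDM4B had 4 matches, 2 of them ACGTG, and RORA had 0. The example promoters all hold a match, so they do not stand for the whole set. In the sequences, capitals mark the matches, and each is read 5′ to 3′ on the strand of its gene.
The ANKRD37 promoter at chr4:185396591-185396890 (plus strand) has 3 matches, all between 162 and 143 bases before the start.
ANKRD37: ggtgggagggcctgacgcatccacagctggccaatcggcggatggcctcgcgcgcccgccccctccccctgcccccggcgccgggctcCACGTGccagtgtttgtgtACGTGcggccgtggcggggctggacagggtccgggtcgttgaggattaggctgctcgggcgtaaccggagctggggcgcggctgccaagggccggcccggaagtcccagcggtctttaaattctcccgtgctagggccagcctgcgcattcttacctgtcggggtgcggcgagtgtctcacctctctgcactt
The LOX promoter at chr5:122078210-122078509 (minus strand) has 4 matches, beginning 185, 116, 98 and 42 bases before the start.
LOX: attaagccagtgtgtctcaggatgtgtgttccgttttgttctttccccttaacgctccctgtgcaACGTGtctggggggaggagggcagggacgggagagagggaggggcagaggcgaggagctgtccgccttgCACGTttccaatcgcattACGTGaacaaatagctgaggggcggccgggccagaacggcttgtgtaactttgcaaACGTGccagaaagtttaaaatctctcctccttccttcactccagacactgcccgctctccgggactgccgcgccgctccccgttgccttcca
The BNIP3 promoter at chr10:131981874-131982173 (minus strand) has 6 matches, between 143 and 104 bases before the start.
BNIP3: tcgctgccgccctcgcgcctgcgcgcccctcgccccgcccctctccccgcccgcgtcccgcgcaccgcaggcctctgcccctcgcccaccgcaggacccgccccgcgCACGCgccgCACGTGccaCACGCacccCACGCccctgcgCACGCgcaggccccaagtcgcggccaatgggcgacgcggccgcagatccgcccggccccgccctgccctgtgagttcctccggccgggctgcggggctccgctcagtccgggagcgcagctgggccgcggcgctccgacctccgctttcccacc
The PLOD1 promoter at chr1:11934467-11934766 (plus strand) has 2 matches, both GCGTG, at 68 and 25 bases before the start.
PLOD1: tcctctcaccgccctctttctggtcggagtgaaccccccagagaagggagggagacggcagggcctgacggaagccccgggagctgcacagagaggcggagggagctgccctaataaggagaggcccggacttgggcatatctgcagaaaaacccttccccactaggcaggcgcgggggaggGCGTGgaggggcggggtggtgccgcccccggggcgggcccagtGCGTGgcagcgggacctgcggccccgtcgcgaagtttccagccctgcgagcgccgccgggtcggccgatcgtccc
A match describes letters in the sequence and not a bound site. The members' values are probe levels and were not measured at these positions.

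Within the siRNA experiment, the arrays of a SIRT1 siRNA lay further apart than the siRNA group lay from its control for 31 of 31 members in KD1 and 30 of 31 in KD2, beside 61.1% and 58.2% of all genes. In KD1, 17 of the 31 members were over 2-fold apart between the arrays, all higher on replicate 2, beside 1.36% of all genes higher to that extent and 1.9% apart either way. In KD2, 7 members were over 2-fold apart, all higher on replicate 3, beside 1.11% of all genes higher and 1.89% either way. Among genes detected on both arrays of the pair, these were 16 of 29 members in KD1, beside 0.987% of such genes higher, and 6 of 30 in KD2, beside 0.694%. Among the 3 OE control arrays, 0 members were that far apart in any pair, beside 1.25%, 1.68% and 0.908% of all genes. Among the OE Sirt1 arrays the counts were 0, 0 and 1 (KDM4B), beside 1.1%, 0.358% and 0.785%. Between the siRNA controls it was 0, beside 0.34%. These are differences between single arrays, with no test.

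The direction was shared well beyond the members over 2-fold. On KD1 replicate 2, 30 of 31 members were higher than on replicate 1, with a median log2 difference of 1.03, where 45.7% of all genes were higher. KDM4B was the exception, at -0.28. On KD2 replicate 3, all 31 were higher than on replicate 2, with a median of 0.74, where 47.3% of all genes were higher. The median SD over members was 0.73 in KD1 and 0.52 in KD2, against 0.11 to 0.17 in the other groups. Over all genes it was 0.11 to 0.15 in the 5 groups, with 0.15 in both KD1 and KD2.

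Single genes were ranked only where both arrays of a pair detected them. The difference between the KD1 arrays was highest among members for ANKRD37, at 2.30, and LOX, at 2.15, which ranked 2 and 4 of 10031 such genes. ANGPTL4 (1.75), TMEM45A (1.63) and NDRG1 (1.60) followed, with 9 members among the 20 highest genes and 17 among the 100 highest. The limit to genes detected on both arrays was added after values were seen, and without it these were 6 and 14. CXCR4 was not detected on KD1 replicate 1 and was at least 1.7-fold higher on replicate 2. Between the KD2 arrays, ANKRD37 (1.34) ranked 9 of 9798 genes. It was followed by P4HA2 (1.14), ANKZF1 (1.08), LOX (1.06), MXI1 (1.05) and ANGPTL4 (1.02). Here 1 member was among the 20 highest genes and 8 among the 100 highest (1 and 6 without the limit). CXCR4 was not detected on KD2 replicate 2 and was at least 3.42-fold higher on replicate 3. A second CXCR4 probe was detected on 3 arrays, namely both siRNA controls and 1 KD2 array. It was detected on 0 KD1 arrays and so gives no measured difference in KD1. Its difference of 0.75 log2 units in KD2 has an undetected array on one side. Both CXCR4 bounds thus rest on the used probe only. ANKRD37, LOX, P4HA2, MXI1 and ANGPTL4 were thus over 2-fold apart in both groups, with both arrays detected. The second ANGPTL4 probe differed by 0.09 between the KD1 arrays and 0.91 between the KD2 arrays. BNIP3, at 0.89 and 0.57, and VEGFA, at 0.87 and 0.79, differed less, in the same direction.

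**Figure D3:**
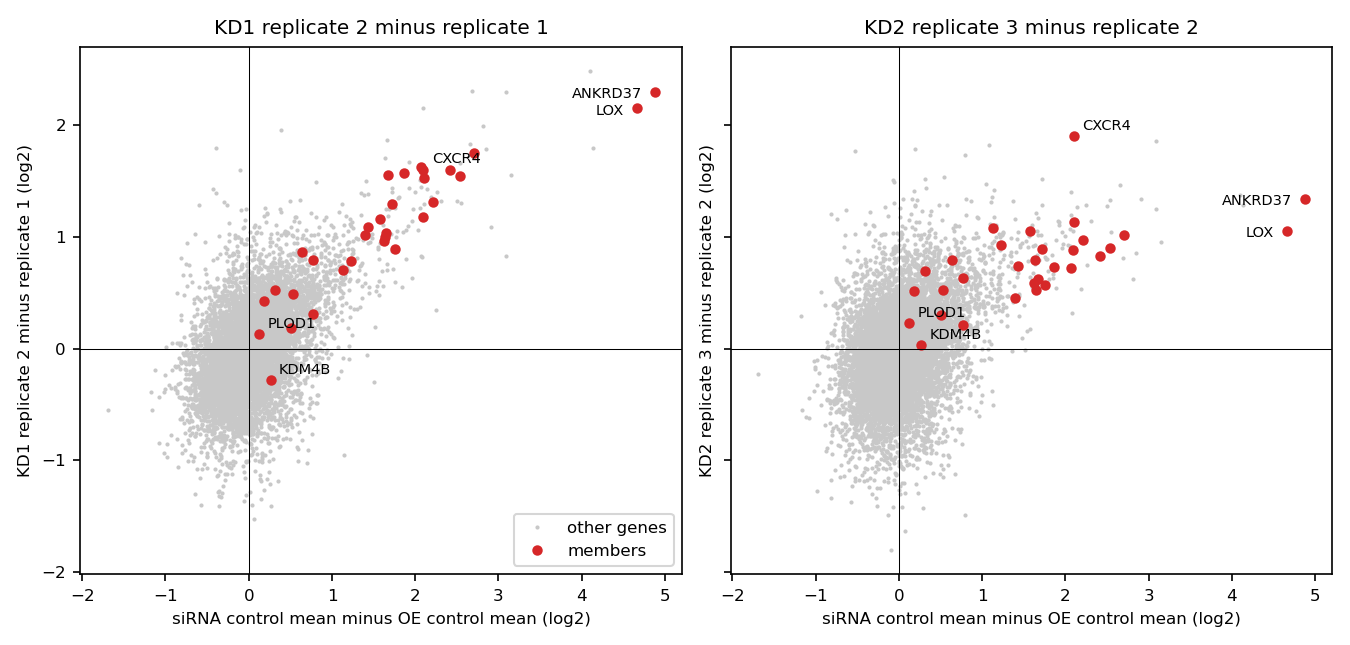
Each point is a gene. The x axis is the log2 difference between the siRNA control and OE control means, and the y axis is the log2 difference between the arrays of KD1 (left) or of KD2 (right); red points are the 31 members and grey points the other genes. Members with a larger step between the controls lie higher on the y axis, and KDM4B and PLOD1 lie near the origin. For 4 of the members (ANGPTL4, CXCR4, MXI1 and SLC6A8) the OE control signal was not above background, so their x values are not exact.

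Members with a large difference between the control groups tended to have a large difference between the arrays of a SIRT1 siRNA. Over the 31 members, the KD1 array difference correlated with the control difference at Pearson's r = 0.901 (all 11458 genes, 0.54), and the KD2 array difference at 0.619 (all genes, 0.396). The KD1 and KD2 array differences correlated at 0.725 over the members and 0.359 over all genes. No array enters both sides of any of these, but the arrays were normalised together and genes are not independent, so these values describe the arrays and carry no test. The 31 include ANGPTL4, CXCR4, MXI1 and SLC6A8, whose OE control signal was not above background, so their control differences are not exact. CXCR4 and SLC6A8 were also not detected on KD1 replicate 1, nor CXCR4 on KD2 replicate 2.

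The position of each array between the controls was expressed as a percent of the log2 distance, with 0% at the OE control mean and 100% at the siRNA control mean, for the 22 members that were over 2-fold apart between the controls. The median position was 42.2% on KD1 replicate 1 and 108% on KD1 replicate 2. It was 78.7% on KD2 replicate 2 and 128% on KD2 replicate 3. The OE Sirt1 arrays had medians from -3.24% to 5.76%. The OE control arrays centre on 0% and the siRNA controls on 100% by the definition of the scale. For ANGPTL4, CXCR4, MXI1 and SLC6A8 the 0% point is a signal not above background, so their positions are not exact. Over the other 18 members the medians were 41.1% and 107% on the KD1 arrays and 82.3% and 124% on the KD2 arrays. Among these 18, KD1 replicate 1 ran from 19.8% (P4HA2) to 65.0% (DDIT4). LOX, at 45.7%, ANKRD37, at 48.6%, and NDRG1, at 37.9%, were near its middle. KD2 replicate 3 ran from 98.1% (PLOD2) to 152% (FAM162A). Of the 6 siRNA arrays, KD1 replicate 1 was the lowest for 27 of the 31 members (17.2% of all genes) and KD2 replicate 3 was the highest for 23 (18.9%).

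**Figure D4:**
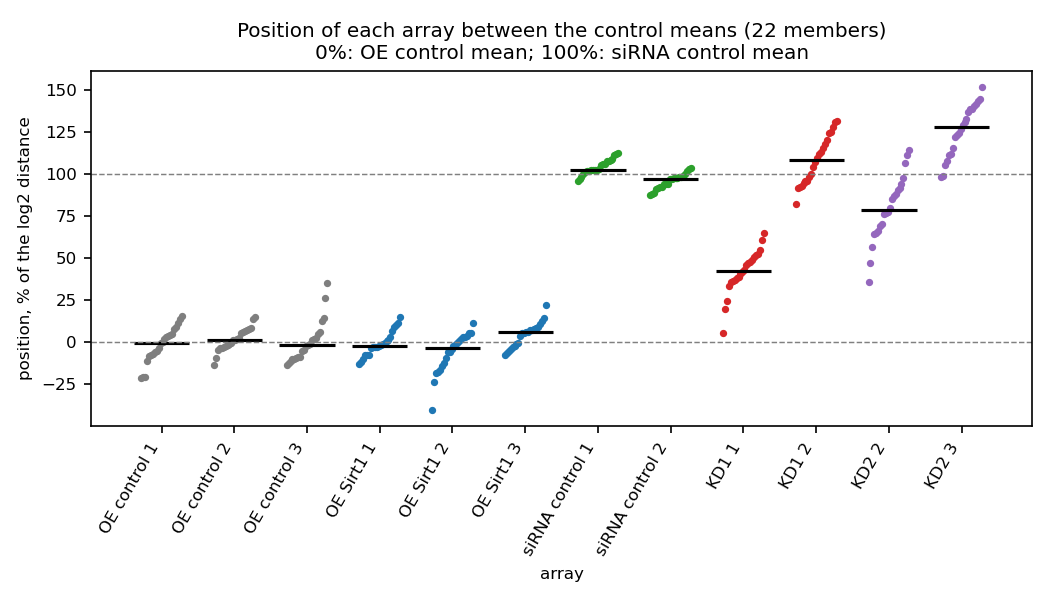
Position of each array on the log2 scale between the OE control mean (0%) and the siRNA control mean (100%), for the 22 members over 2-fold apart between these means; each point is 1 member, and the bar is the array's median; 4 of the members had no OE control signal above background. The OE control arrays centre on 0% and the siRNA controls on 100% by definition, and the OE Sirt1 arrays sit near 0%. KD1 replicate 1 has a median of 42.2%, and KD2 replicate 3 has a median of 128%.

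The KD1 arrays read 7.35 and 7.33 for SIRT1, nearly the same, while the members differed. In KD2 the array with higher members, replicate 3, had the lower SIRT1 level (7.18 against 7.87). The raw median intensity was 131.8 and 110.8 on the KD1 arrays and 113.8 and 126.6 on the KD2 arrays, so the array with higher members was the dimmer one in KD1 and the brighter one in KD2. The number of detected probes was 16717 and 17476 in KD1 and 17185 and 16186 in KD2. The part of these measures in the members' differences was not tested.

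Against this spread, no SIRT1 comparison called a member. For KD1 against the siRNA control, limma called 0 of 31 members, beside 0.175% of all genes, and 3 members (LOX, HILPDA and ANKRD37) had an unadjusted p below 0.05. The members' median log2 fold change was -0.25, where the median of all genes was -0.01, and 4 of the 31 were above 0. LOX had the smallest adjusted p, at -1.46 (SE 0.55, limma adjusted p = 0.434), with a 95% interval of -2.66 to -0.25. HILPDA followed at -0.91 (SE 0.41, limma adjusted p = 0.541), with an interval of -1.81 to -0.0024. ANKRD37 was at -1.36 (SE 0.61, limma adjusted p = 0.543), with -2.71 to -6e-04. Both of these intervals end just below 0. P4HA2, at -0.92, and CXCR4, at -1.18 and detected on 1 of the KD1 arrays, had intervals that included 0.

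The KD1 values rest on replicate 1. On that array alone, all 31 members were below the siRNA control mean, where 51.8% of all genes were above it, with a median difference of -0.78, and 29 were below both control arrays, which held for 36.1% of all genes. On KD1 replicate 2, 20 members were above the control mean (46.3% of all genes), the median difference was 0.12, and 15 were above both control arrays, beside 33.2% of all genes. LOX was at -1.46 in the comparison with both KD1 arrays, at -0.38 without replicate 1 (limma adjusted p = 0.816) and at -2.53 without replicate 2 (0.0792). The KD1 arrays thus lay on opposite sides of the control mean for 20 of the 31 members, beside 39.8% of all genes.

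KD2 against the siRNA control called 0 of 31 members with limma, beside 0.436% of all genes, and 0 had an unadjusted p below 0.05. The median was -0.03 (all genes, -0.03), and 15 members were above 0. ANGPTL4 had the highest fold change, 0.69 (SE 0.51, limma adjusted p = 0.611), with an interval of -0.44 to 1.82, and P4HA1 the lowest, -0.47 (SE 0.36, limma adjusted p = 0.632), with -1.26 to 0.33. Here too the arrays fell on both sides, with 5 members above the control mean on replicate 2 (46.9% of all genes) and 27 on replicate 3 (45.7%). The intervals are wide, and for LOX the KD2 interval of -1.38 to 1.04 holds both a 2-fold fall and a 2-fold rise. The mean of both siRNAs against the control called 0 members (all genes, 0.201%), with 0 below an unadjusted p of 0.05 and a median of -0.08.

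KD1 against KD2 called 0 members, beside 0.62% of all genes. LOX (-1.28) and ANGPTL4 (-1.15) had an unadjusted p below 0.05, with limma adjusted p of 0.387 and 0.401. Against the siRNA control, the used ANGPTL4 probe was at -0.46 in KD1 and 0.69 in KD2. A second ANGPTL4 probe, detected on 11 arrays, was higher in both, at 0.42 and 0.60. The ANGPTL4 value of -1.15 thus holds for the used probe only. The median over members was -0.42 and 2 of 31, STC2 and KDM4B, were above 0.

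The plasmid comparison had the narrowest intervals. OE Sirt1 against OE control called 0 members and 0% of all genes with limma, while 404 of all genes and 1 member had an unadjusted p below 0.05. That member was RORA, at -0.45 (SE 0.19, limma adjusted p = 1). The members' fold changes ran from -0.47 (KDM4B) to 0.26 (VEGFA), with a median of -0.03 (all genes, 0.01). BNIP3 was at -0.07 (SE 0.22, limma adjusted p = 1), with an interval of -0.55 to 0.42, and VEGFA had an interval of -0.25 to 0.77. LOX, at 0.13, had an interval of -0.86 to 1.12, which reflects the spread of the siRNA arrays too, since 1 variance per gene is shared by all groups. The difference between the plasmid effect and the mean siRNA effect was called for 0 members and 0% of all genes, with 0 members below an unadjusted p of 0.05.

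**Figure D5:**
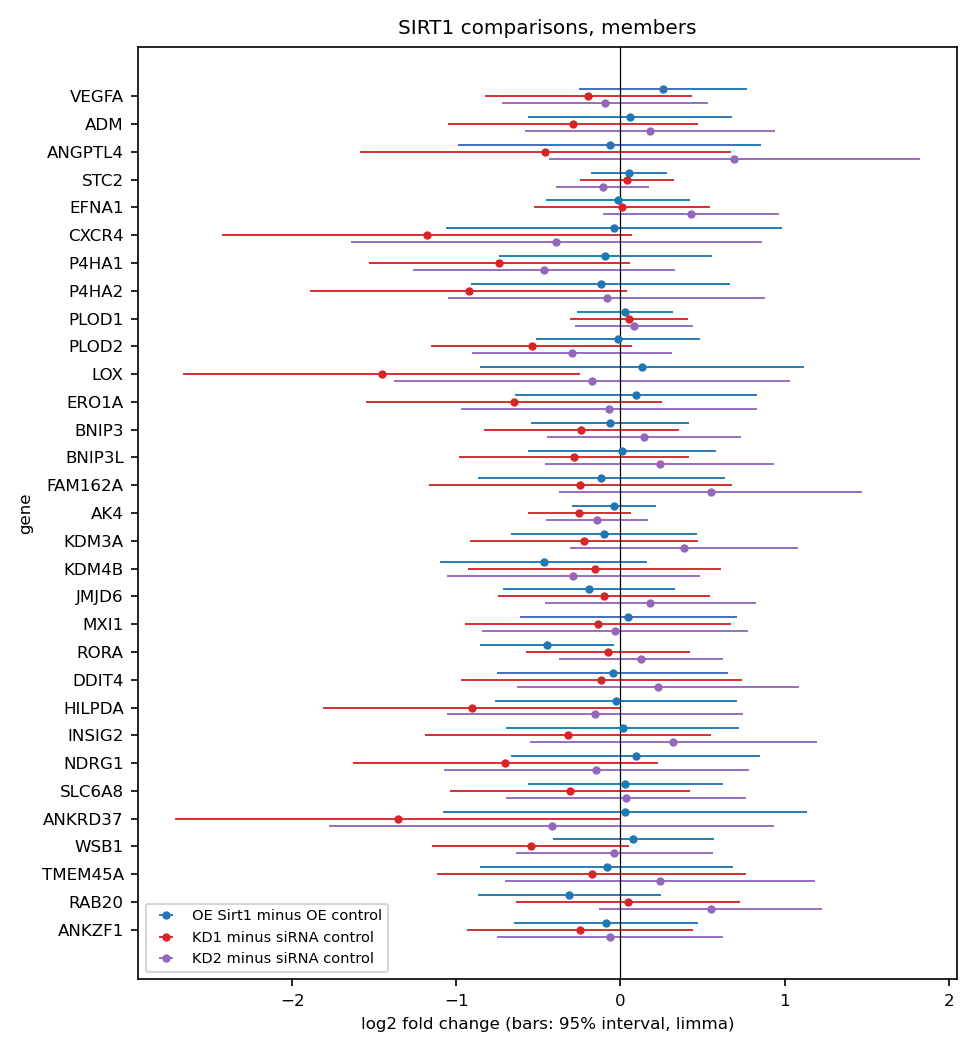
Log2 fold change of each member in the plasmid comparison (blue), KD1 (red) and KD2 (purple) against their controls; points are limma estimates and bars their 95% intervals. Most intervals include 0, LOX in KD1 is at -1.46 with an interval of -2.66 to -0.25, and no member passed the threshold after adjustment over all genes.

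The oxygen-sensing genes gave a mixed picture beside the members. Of 11 measured, 3 were higher with the scrambled siRNA than with the control plasmid, beside 3.78% of all genes, and 0 were lower. These were EGLN3 (1.45, limma adjusted p = 0.025) and EGLN1 (1.20, 0.0206), the oxygen-dependent hydroxylases that are themselves HIF targets, and CITED2 (1.16, 0.015), an inhibitor of HIF binding to its coactivators. EGLN3 read 5.56, 6.15 and 5.91 on the OE control arrays and 5.93, 5.71 and 5.67 on the OE Sirt1 arrays. For EGLN3 the siRNA controls gave 7.09 and 7.55, the KD1 arrays 6.97 and 7.98, and the KD2 arrays 7.31 and 7.80. EGLN3 thus had the step between the experiments and the lower KD1 replicate 1 of the members. The factor HIF1A itself did not show the step. HIF1A read 7.95, 8.15 and 8.19 on the OE control arrays and 7.85, 7.22 and 8.07 on the OE Sirt1 arrays. For HIF1A the siRNA controls gave 7.72 and 8.24, the KD1 arrays 8.26 and 8.18, and the KD2 arrays 8.49 and 8.26. The HIF1A protein is controlled mainly through protein stability, which arrays do not measure. The median over the 11 genes was -0.02.

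Of 19 measured glycolytic and other metabolic HIF targets, 7 were higher with the scrambled siRNA, beside 3.78% of all genes, and 0 were lower. Their median log2 difference was 0.60. ENO2, an enolase, was detected on 0 of the OE control arrays and was at least 12.8-fold higher. Its fold is therefore a lower bound, given without a p-value. ENO2 is among the 7, and its call rests on OE control values not above background. The log2 differences of ALDOC (2.06), HK2 (2.00) and PFKFB4 (1.77) came next. ENO2 read 5.51, 5.41 and 5.34 on the OE control arrays and 5.60, 6.21 and 5.25 on the OE Sirt1 arrays. For ENO2 the siRNA controls gave 9.76 and 9.29, the KD1 arrays 7.00 and 9.48, and the KD2 arrays 8.67 and 10.05. ENO2 split the KD1 arrays as LOX and ANKRD37 did. Of 11 measured ATF4 stress targets 1 (VLDLR, 1.20) was higher, and of 3 PPARA targets 1 (PLIN2, 1.09). In lists this short, 1 called gene says little beside the share of all genes. None of these 4 lists had a gene called in the plasmid comparison, in KD1, in KD2 or between KD1 and KD2. Of all genes, 0%, 0.175%, 0.436% and 0.62% were called there.

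Markers of other cell types were read beside the step between the experiments. For the 11 measured epithelial markers, the mean centred level per array was -0.15 to -0.01 in the plasmid groups, 0.09 to 0.15 in the siRNA control, -0.17 to 0.01 in KD1 and 0.14 to 0.18 in KD2. APOA4 was higher (2.18) and KRT18 lower (-0.99) with the scrambled siRNA than with the control plasmid. Of 9 fibroblast markers, DCN, THY1 and FAP were detected on 0 arrays, and the 6 measured ones had a mean of -0.21 to -0.04 in the plasmid groups, -0.04 to 0.06 in the siRNA control, 0.14 to 0.35 in KD1 and 0.11 to 0.15 in KD2. COL1A2 (0.86) and PDGFRB (0.92) were higher with the scrambled siRNA, and COL3A1 was higher in KD1 (0.83) and KD2 (0.99) than in the siRNA control. PDGFRA was higher in KD1 than in KD2 (0.96, limma adjusted p = 0.0171). Of 6 endothelial markers 5 were detected on 0 arrays, and of 7 leukocyte markers PTPRC and CD3E were detected on 0 arrays. CD68, a lysosomal protein, was higher by 1.06 with the scrambled siRNA. The 3 measured leukocyte markers had a mean of -0.15 to 0.09 in the plasmid groups, 0.32 to 0.41 in the siRNA control, -0.26 to -0.06 in KD1 and -0.17 to -0.13 in KD2. The part of these genes in the members' differences was not tested.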

How the data were processed

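RNA of 12 Caco-2 samples was hybridised to Illumina arrays. Unnormalised probe intensity was deposited by the authors for 47323 probes, read with GenomeStudio 2010.1 per the submitters' processing notes. The deposited detection p-value columns hold 1 minus p. The deposited normalised table is on a log2 scale with 1 common distribution; how it was made is not given in the sources used here. Of these probes, 47231 are in the deposited value table, and the other 92 were detected on 0 arrays.

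Intensities were background-corrected and quantile-normalised with neqc (limma 3.58.1, R 4.3.3, offset 16). Probes with detection p below 0.01 on at least 2 arrays and 1 platform symbol were kept (15104 of 19263), and the brightest per gene gave 11458 genes. A single limma model was fitted to the 12 arrays, with group means (7 residual degrees of freedom, prior 3.63), with two-sided moderated tests and Benjamini-Hochberg adjustment over all genes at 0.05. With 2 or 3 arrays per group, their number limits precision: the median SE of a log2 fold change was 0.143 for the plasmid and 0.175 for KD1. Scripts were tested on simulated data.

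For a gene detected on no array of a group, the bound takes, on each array of that group, the higher of its own level and the lowest level of a detected probe. Every member could be named; values on each array were given for called members and those spanning over 1 log2 unit (PLOD1 was added after its values were seen), and from other lists the called genes. The genes outside the list with the highest and lowest differences between arrays of one siRNA were named. Limiting these and the ranks of the members to genes detected on both arrays was added after values were seen. Members, lists and tests were chosen with earlier results of these data known. Replicate numbers did not pair samples (correlations of deviations from -0.164 to 0.145) and were not used. Alternatives were normalization, scaling, filter, probe choice, variance model, arrays in the fit, a replicate block and leaving out each array.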

Additional observations from a re-analysis of the deposited data

How the results depend on the processing

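No called value changed sign under any alternative tried. Medians near 0 did: the members' median of -0.03 in the plasmid comparison was 0.22 with median scaling (all genes, 0.27), and that of -0.03 in KD2 was 0.01 on the authors' values and 0.08 with kept-probe scaling. The count of 24 members higher with the scrambled siRNA than with the control plasmid was 14 with a replicate block, which changed no other call of a member; the replicate numbers do not pair the arrays, and 0 of the 6 plasmid arrays correlated best with the array of their own number. Leaving out 1 array at a time gave 0 to 25 members, with 0 without siRNA control replicate 1 or replicate 2 and 12, 14 and 11 without OE control replicates 1, 2 and 3. It was 25 on the authors' normalised values, 17 without a detection filter, 22 with detection on at least 6 arrays, 24 with the mean of probes, 25 with trend and robust variance, 25 with array weights, and 27 with median scaling in place of quantiles. Fitted on the control arrays alone it was 26 and scaled on the median of kept probes 20; both settings were chosen after seeing the data. All genes called in this comparison numbered 578, and 159 with the block, 1057 on the authors' values, 1279 with median scaling, 1267 with array weights, 1011 with trend and robust variance, 297 without a filter and 134 to 765 with any other single array left out than a siRNA control. Median scaling moved the median of all genes by 0.27 in the plasmid comparison, -0.23 in KD1, -0.34 in KD2 and 0.35 between the controls; there KD1 called 1 member, LOX, at -1.69 (limma adjusted p = 0.0331), which is -1.46 relative to that shift. The members over 2-fold apart between the KD1 arrays then numbered 11 in place of 17, and between the KD2 arrays 2 in place of 7, where the median of all genes shifted by -0.30 and -0.23. On the authors' values the KD2 count was 3 and all genes over 2-fold apart numbered 12 in place of 216. The cause of these moves was not tested. In every alternative tried, the plasmid comparison, KD2, the mean of both siRNAs, KD1 against KD2 and the plasmid minus siRNA effect called 0 members. Over the alternatives, all genes called ran from 0 to 77 in KD1 (20 as reported), 0 to 171 in KD2 (50), 1 to 91 for the mean of both siRNAs (23), 0 to 162 for KD1 against KD2 (71), 0 to 1 for the plasmid and 0 to 74 for the plasmid minus siRNA effect (0 for both). The SIRT1 call in KD1 was lost with array weights, the siRNA arrays alone, the kept-probe scaling, no filter, the block, and without any 1 of the plasmid, siRNA control or KD1 arrays; in KD2 it was gained in 6 settings. With 2 arrays in each siRNA group, even the LOX value of -1.46 in KD1 missed the threshold.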

Other observations

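Genes outside the list also split the arrays of one siRNA. Among genes detected on both arrays, a limit added after the values were seen, the non-members with the highest log2 difference between KD1 replicates 2 and 1 were ENO2 (2.49), CYP26A1 (2.30), NPPB (2.15), PLAAT1 (1.87) and CSF1R (1.83). NPPB, which encodes a natriuretic peptide, read 8.04 on KD1 replicate 1, below all plasmid arrays, and 10.20 on replicate 2. CYP26A1, an enzyme that breaks down retinoic acid, read 6.95 and 9.25. BIRC7, an inhibitor of apoptosis, was detected on both siRNA controls (7.19 and 7.26), on KD1 replicate 2 and on both KD2 arrays, but not on KD1 replicate 1 or on any plasmid array, and it was at least 2.37-fold higher on KD1 replicate 2 than on replicate 1. The lowest differences were those of IKZF2 (-1.28), MYL7 (-1.16), MPND (-1.13), AQP7P1 (-1.12) and NOC2L (-1.08).

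Between KD2 replicates 3 and 2 the highest non-members detected on both arrays were ZG16 (1.82), PRR7 (1.54), LCN15 (1.52), CSF1R (1.46) and TINF2 (1.44). The lowest were KMT2A (-1.30), TIMM8A (-1.23), ADAM23 (-1.20), HAS3 (-1.18) and GPM6A (-1.18). CSF1R, the receptor of a macrophage growth factor, was among the highest 5 in both pairs. For CSF1R the siRNA controls gave 9.08 and 8.96, the KD1 arrays 6.33 and 8.16, and the KD2 arrays 7.46 and 8.92, and the plasmid arrays ran from 5.96 to 6.66. ZG16, a lectin of goblet cell mucus, read 5.85 and 7.67 on the KD2 arrays, beside 7.45 and 7.26 in the siRNA controls. These are single-array differences with no test.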
